A study of Mus musculus with 12 samples.

Results

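The genes described here are 10 transcripts by which mouse neutrophils are recognised in tissue: Ly6g, Itgam, Csf3r and Cxcr2 at the cell surface, the calcium-binding pair S100a8 and S100a9 of the cytosol, and Pglyrp1, Ltf, Ngp and Chil3, whose products are stored in granules. They were taken by name, and all 10 were found in both tables of expression values, among 32199 genes listed in one and 31719 in the other. The libraries are bulk RNA-seq of mouse kidney, 12 in all, each from a separate animal. The series asks how PAD4, the enzyme behind neutrophil extracellular traps, and the cytokine IL-33 bear on tubular injury and ferroptosis, a cell death driven by iron and lipid peroxidation. In the first set, 3 Padi4 knockout kidneys (PAD4 knockout below) were compared with 3 wild-type C57BL/6 kidneys, and in the second set 3 Il33 knockout kidneys with another 3 wild-type kidneys. The labels give a batch number of its own to each set. All animals, wild type included, were males aged 8 weeks and went through the same contrast-induced acute kidney injury. Their surgery removed a kidney and was followed by 3 weeks of recovery. Water was then withheld for 24 h, and the animals were given furosemide, a loop diuretic, 20 min ahead of iodixanol, an iodinated contrast agent, into the tail vein, and the kidney was taken 24 h later. No uninjured group was analysed here, so no level can be read as induced by contrast. The labels do not say how either allele was made or in which cells it acts.

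Neutrophils are short-lived granulocytes that leave the bone marrow under the growth factor G-CSF and follow chemokines through the receptor CXCR2 into injured tissue. They carry granules of successive kinds: azurophil granules are filled at the promyelocyte stage, and specific and gelatinase granules, which hold lactoferrin and related proteins, later. Most granule genes are therefore transcribed in the marrow and fall silent as the cell matures, while S100a8 and S100a9 remain abundant messages in circulating cells. On strong activation PAD4 citrullinates histones, chromatin unfolds, and DNA is cast out with granule proteins on it as an extracellular trap.

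Promoter sequence is shown for the 5 genes that either make up the calprotectin pair, encode proteins of specific granules, or define the lineage, since myeloid genes of this kind are known targets of the factors C/EBP and PU.1. The sequences are those of RefSeq on GRCm38.p6, 5′ to 3′ on the gene's strand, from 250 bases before the RefSeq start and ending before the first transcript start of the GENCODE annotation where that came earlier. Capitals mark matches to a C/EBP motif searched as TTGCNNAA, which reads TTNNGCAA on the other strand, or to a PU.1 motif searched as GAGGAAG, which reads CTTCCTC on the other strand. The S100a8 stretch lies at chr3:90668821-90668977 on the plus strand, that of S100a9 at chr3:90695722-90695971 on the minus strand, that of Ngp at chr9:110419558-110419746 on the plus strand, that of Ltf at chr9:111019042-111019270 on the plus strand, and that of Ly6g, whose first of 2 RefSeq starts is used, at chr15:75155011-75155239 on the plus strand.
S100a8: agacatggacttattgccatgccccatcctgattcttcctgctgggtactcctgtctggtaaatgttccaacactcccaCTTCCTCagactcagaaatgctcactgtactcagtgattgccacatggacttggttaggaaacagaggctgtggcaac
S100a9: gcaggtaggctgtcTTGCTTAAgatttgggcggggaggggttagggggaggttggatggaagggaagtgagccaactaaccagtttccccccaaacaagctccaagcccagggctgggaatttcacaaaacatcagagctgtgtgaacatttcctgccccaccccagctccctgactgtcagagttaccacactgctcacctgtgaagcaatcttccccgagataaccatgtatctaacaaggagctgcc
Ngp: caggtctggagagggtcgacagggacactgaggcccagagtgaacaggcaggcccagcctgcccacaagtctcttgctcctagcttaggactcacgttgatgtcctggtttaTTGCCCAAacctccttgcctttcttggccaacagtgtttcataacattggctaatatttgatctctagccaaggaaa
Ltf: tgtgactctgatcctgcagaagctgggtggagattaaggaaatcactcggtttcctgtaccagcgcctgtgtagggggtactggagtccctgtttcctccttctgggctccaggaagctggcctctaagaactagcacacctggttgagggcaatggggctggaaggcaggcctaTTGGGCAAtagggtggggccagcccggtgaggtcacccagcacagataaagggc
Ly6g: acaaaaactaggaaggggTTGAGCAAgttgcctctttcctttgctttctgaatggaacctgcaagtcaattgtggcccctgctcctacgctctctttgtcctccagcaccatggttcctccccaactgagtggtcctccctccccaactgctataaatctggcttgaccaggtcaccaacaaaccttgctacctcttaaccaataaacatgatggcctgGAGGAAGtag
Over the whole 250 bases, both strands read, the C/EBP letters stood in 4 of the 10 genes (S100a9, Ngp, Ltf and Ly6g) and in 9.56% of 32851 RefSeq promoters. The PU.1 letters stood in 5 of the 10 (S100a8, Csf3r, Pglyrp1, Itgam and Ly6g) and in 10.6% of promoters. Ly6g alone held both, its C/EBP match beginning 232 bases and its PU.1 match 31 bases before the start, and the matches did not overlap. Ngp held another C/EBP match 11 bases before its start, outside the stretch printed. That match and the PU.1 matches of Csf3r and Pglyrp1 lay past the first GENCODE transcript start, within the annotated gene. Neither set of letters was found for Cxcr2 or Chil3. These matches describe the letters only and do not show binding.

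Levels are given in FPKM, fragments scaled to transcript length and to all fragments mapped, which is a level per length and so can be compared between genes of a library. The depth of sequencing is unknown from FPKM, and no counting error can be attached to the low values. Per-library sums of FPKM ran from 700601 to 812981 in the PAD4 set, of which mitochondrial genes took 52.0% to 60.0%. In the IL-33 set they ran from 385124 to 420279, with 24.1% to 29.2% mitochondrial, so levels were tested within a set and never across sets. Padi4, the knocked-out gene of the first set, was at 0.217, 0.497 and 0.187 FPKM in PAD4 knockout kidneys, against 0.704, 1.06 and 1.67 FPKM in wild type (change on the log2(FPKM + 1) scale -0.71 ± 0.19 (SE), limma adjusted p = 0.0147). Its highest values were in knockout library 2 and wild-type library 3, as for Ly6g, and the neutrophil genes described below fell in the same kidneys. The fall of Padi4 therefore does not by itself check the allele. Il33 was at 1.14, 0.616 and 1.02 FPKM in the libraries labelled IL-33 knockout, against 1.71, 1.13 and 3.64 FPKM in their wild type, a difference that did not pass (-0.65 ± 0.28 (SE), limma adjusted p = 0.0990). These libraries are called labelled IL-33 knockout for that reason. In the PAD4 set Il33 fell, to 0.889, 1.58 and 1.28 FPKM in PAD4 knockout kidneys, against 3.57, 5.29 and 3.28 FPKM in wild type (-1.15 ± 0.23 (SE), limma adjusted p = 0.00208), and the groups did not overlap. The Il33 changes of both sets were not shown to differ (labelled IL-33 knockout minus PAD4 knockout 0.51 ± 0.35 (SE), limma adjusted p = 0.376). Xist, a transcript of the inactive X chromosome, was at 0.401, 1.52 and 0.389 FPKM in PAD4 knockout libraries, against 2.00, 1.78 and 4.97 FPKM in their wild type, although the labels give males. It was at most 0.0151 FPKM in the IL-33 set.

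In PAD4 knockout kidneys 7 of the 9 neutrophil genes that could be tested fell, and none rose. The falls covered the lineage marker Ly6g, the integrin gene Itgam, both S100 genes and the granule genes Pglyrp1, Ltf and Chil3. Mean levels in the knockout were between 16.4% (Chil3) and 49.8% (Ngp) of wild type over all 10. The test was limma on log2(FPKM + 1), over the 13986 genes with a mean of at least 0.5 FPKM in the 6 libraries of the set, with Benjamini-Hochberg adjustment over all of them and a threshold of 0.05. By that rule 8.79% of all genes tested fell and 8.89% rose. The median change of the 9 genes was -1.70, against 0.016 for all genes tested. Csf3r and Ngp did not pass, and Cxcr2 lay under the 0.5 FPKM filter. Itgam passed that filter through wild type only, with a mean of 0.432 FPKM in the knockout and 1.83 FPKM in wild type.

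**Figure D1:**
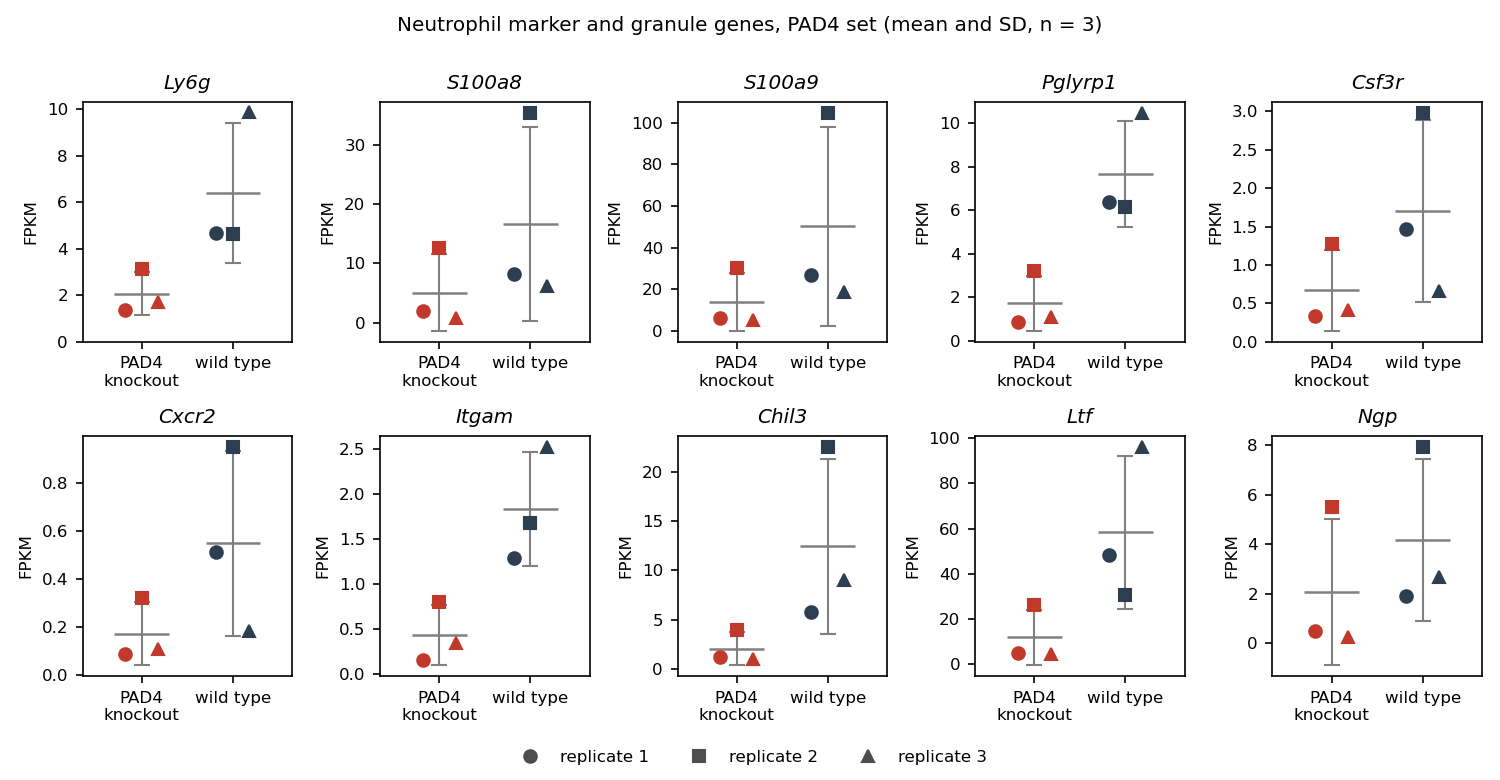
FPKM of each of the 10 neutrophil genes in the PAD4 set, with PAD4 knockout libraries on the left and wild-type libraries on the right of each panel. Symbols stand for the replicate number, horizontal lines for the group mean and bars for the SD (n = 3). Replicate 2 is the highest knockout library in all 10 panels, and the groups do not overlap for Ly6g, Pglyrp1, Itgam, Chil3 and Ltf.

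Among the surface proteins, Ly6g (ENSMUSG00000022582), the GPI-anchored antigen by which mouse neutrophils are usually sorted and counted, was at 1.38, 3.12 and 1.70 FPKM in PAD4 knockout kidneys, against 4.67, 4.64 and 9.88 FPKM in wild type. Every knockout library lay below every wild-type library, and wild-type library 3 stood well above the other two. The change was -1.24 ± 0.29 (SE), with a limma adjusted p of 0.00597. Without wild-type library 3 it was -0.92, with an adjusted p of 0.0501. Itgam, the alpha chain of the adhesion receptor CD11b/CD18, which monocytes and macrophages carry too, was at 0.152, 0.801 and 0.344 FPKM in the knockout, against 1.28, 1.68 and 2.53 FPKM in wild type. The groups again did not overlap (-0.98 ± 0.21 (SE), limma adjusted p = 0.00373). Itgam overlaps the predicted gene Gm49368 on the same strand, which was listed at 0.361 FPKM at most in this set, and fragments of these genes cannot be fully told apart.

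The signalling receptors were, with Itgam, the lowest of the 10 genes by group mean. Csf3r, the receptor for G-CSF, was at 0.330, 1.28 and 0.410 FPKM in PAD4 knockout kidneys, against 1.47, 2.98 and 0.661 FPKM in wild type. Here knockout library 2 lay above wild-type library 3, and the change did not pass (-0.64 ± 0.27 (SE), limma adjusted p = 0.105). It passed when knockout library 2 was left out (-0.89, adjusted p = 0.000826) and when wild-type library 3 was (-0.95, adjusted p = 0.0493). Without knockout library 2 limma took all errors from the trend of spread with level over all genes. The spread of Csf3r itself did not enter that p. Cxcr2, the receptor through which neutrophils follow CXC chemokines, was at 0.0853, 0.322 and 0.106 FPKM in the knockout, against 0.510, 0.951 and 0.181 FPKM in wild type. These groups overlapped (exact permutation test, two-sided, p = 0.2, where 3 against 3 cannot go below 0.1).

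S100a8 and S100a9 encode the subunits of calprotectin, the most abundant cytosolic protein of neutrophils, which monocytes also make. S100a9 was at 6.25, 29.9 and 5.29 FPKM in PAD4 knockout kidneys, against 26.9, 105 and 18.5 FPKM in wild type. S100a8 was at 1.97, 12.5 and 0.729 FPKM in the knockout, against 8.21, 35.5 and 6.14 FPKM in wild type. For both genes knockout library 2 lay above wild-type libraries 1 and 3, and wild-type library 2 stood far above all others. The changes were -1.78 ± 0.56 (SE) for S100a9 and -1.70 ± 0.58 (SE) for S100a8, with limma adjusted p of 0.0315 and 0.0490. These calls were the least stable of the 7. S100a8 did not pass without knockout library 3 (adjusted p = 0.133), wild-type library 1 (0.187) or wild-type library 3 (0.0835), and S100a9 did not pass without knockout library 3 (0.0627), wild-type library 1 (0.153) or wild-type library 3 (0.0538). The ratio of S100a8 to S100a9 within a library was 0.314, 0.418 and 0.138 in the knockout and 0.305, 0.338 and 0.331 in wild type, and knockout library 3 stood apart from the other libraries, which lay between 0.305 and 0.418.

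The granule genes held the largest changes. Ltf encodes lactoferrin, the iron-binding protein of specific granules, which uterine and other glandular epithelia secrete as well. It was at 5.00, 26.1 and 4.74 FPKM in PAD4 knockout kidneys, against 48.2, 30.8 and 96.1 FPKM in wild type. The groups did not overlap, though knockout library 2 came close to wild-type library 2. The change was -2.45 ± 0.49 (SE), with a limma adjusted p of 0.00225, and of 0.0626 without wild-type library 1. Ltf made up 28.2%, 30.1% and 30.3% of the summed FPKM of the 10 genes in the knockout, against 45.8%, 14.1% and 61.5% in wild type.

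Chil3, which encodes the chitinase-like protein Ym1 of neutrophils and of alveolar and alternatively activated macrophages, was at 1.17, 3.96 and 0.983 FPKM in PAD4 knockout kidneys, against 5.75, 22.6 and 8.99 FPKM in wild type. All knockout libraries lay below all wild-type libraries (-2.07 ± 0.39 (SE), limma adjusted p = 0.00144). Pglyrp1, a peptidoglycan recognition protein stored in granules, was at 0.887, 3.19 and 1.11 FPKM in the knockout, against 6.39, 6.17 and 10.5 FPKM in wild type. It had the smallest adjusted p of the 10 genes (-1.73 ± 0.30 (SE), limma adjusted p = 0.000739), and its groups did not overlap. Ngp, neutrophilic granule protein, a cystatin-family protein of specific granules, was at 0.506, 5.49 and 0.239 FPKM in the knockout, against 1.89, 7.94 and 2.69 FPKM in wild type. Knockout library 2 lay above wild-type libraries 1 and 3, and the change did not pass (-0.99 ± 0.46 (SE), limma adjusted p = 0.151). Among libraries left out in turn, it passed only without knockout library 2 (-1.74, limma adjusted p = 1.15e-09). In that fit the SE of 0.26 came from the trend over all genes alone, so the spread of Ngp itself did not enter that p.

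In all, 5 of the 10 genes had no overlap between PAD4 knockout and wild type, all of them lower in the knockout. In the same libraries 11.9% of all genes listed and 15.8% of those past the filter were lower with no overlap, and 11.3% and 17.2% were higher. The exact permutation p, two-sided, was 0.1 for each of these 5, the smallest possible. The summed FPKM of the 10 genes was 17.7, 86.7 and 15.7 in the knockout, against 105, 218 and 156 in wild type. Knockout library 2 held the highest value of its group for all 10 genes, and without it all 9 tested genes fell. In that fit errors came from the trend over all genes alone, and the spread of each gene did not enter. With wild-type library 1 left out 4 of the 9 passed, and with no filter on level, which put 32199 genes to the test, none of the 10 passed and no gene of the table did, while 5 of the 10 were at an unadjusted p under 0.05.

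Wild-type kidneys of the PAD4 set differed among themselves in which neutrophil genes they held most. S100a8, S100a9, Csf3r, Cxcr2, Chil3 and Ngp were highest in library 2, and Ly6g, Pglyrp1, Itgam and Ltf were highest in library 3. The ratio of Ltf to S100a9 within a library was 0.800, 0.872 and 0.897 across knockout libraries 1 to 3, whereas it was 1.79, 0.293 and 5.19 across those of wild type. Likewise the ratio of Ly6g to S100a9 was 0.220, 0.104 and 0.322 in the knockout, against 0.174, 0.0441 and 0.534 in wild type. A single proportion of these messages therefore did not hold over the wild-type kidneys.

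Transcripts listed for other tissues moved with the neutrophil genes in this set, and their part in the result was not tested. Of 10 lung epithelial genes tested 9 fell and 1 rose (Napsa, which kidney tubules also express). The smallest p were those of Sftpd (-2.25), Ager (-2.06) and Sftpb (-1.96). Sftpc, surfactant protein C of the lung, was at 17.4, 60.7 and 10.6 FPKM in PAD4 knockout libraries, against 78.4, 219 and 165 FPKM in wild type, and Scgb1a1, the club cell secretory protein of the airways, was at 35.8, 119.9 and 25.5 FPKM, against 177, 535 and 266 FPKM. Sftpc and Scgb1a1 were highest in knockout library 2 and wild-type library 2, as were S100a8, S100a9, Csf3r, Cxcr2, Chil3 and Ngp. All 12 colon epithelial genes fell, Fcgbp (-1.90), Cdx1 (-1.91) and Muc2 (-1.98) with the smallest p. Their summed levels were 115 to 209 FPKM in the knockout, against 372, 567 and 565 FPKM in wild-type libraries 1 to 3. Zg16, a mucus protein of the colon, was highest in wild-type library 3, where the sum of the list was not. Sftpc, Scgb1a1 and Zg16 were chosen with their values known.

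Among 5 genes of the uterus and oviduct list 2 fell, with summed levels of 20.9 to 154 FPKM in PAD4 knockout and 155 to 499.7 FPKM in wild type. Those that fell were Prap1, at 5.96, 38.5 and 6.26 FPKM in the knockout and 159, 68.4 and 225 FPKM in wild type, and Sprr2f, at 12.4, 106.7 and 15.7 FPKM in the knockout and 134, 82.1 and 262 FPKM in wild type. Their order over the wild-type libraries was that of Ltf. Pgr, the progesterone receptor gene, did not pass (-0.66, limma adjusted p = 0.0619). Sprr2f fell in the IL-33 set too (-2.62 ± 0.47 (SE), limma adjusted p = 0.00395). Membership of this list does not show which tissue made a transcript, and that was not tested. Of 5 erythroid genes tested all fell, among them the globin genes Hba-a2 (-1.58), Hba-a1 (-1.55) and Hbb-bt (-1.38), with summed levels of 599 to 926 FPKM in the knockout and 1303 to 2505 FPKM in wild type and the highest knockout value in library 3, where the neutrophil genes had theirs in library 2. In whole-kidney RNA fewer neutrophils and less RNA per neutrophil cannot be told apart, and the part of other tissues or blood was not tested.

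**Figure D2:**
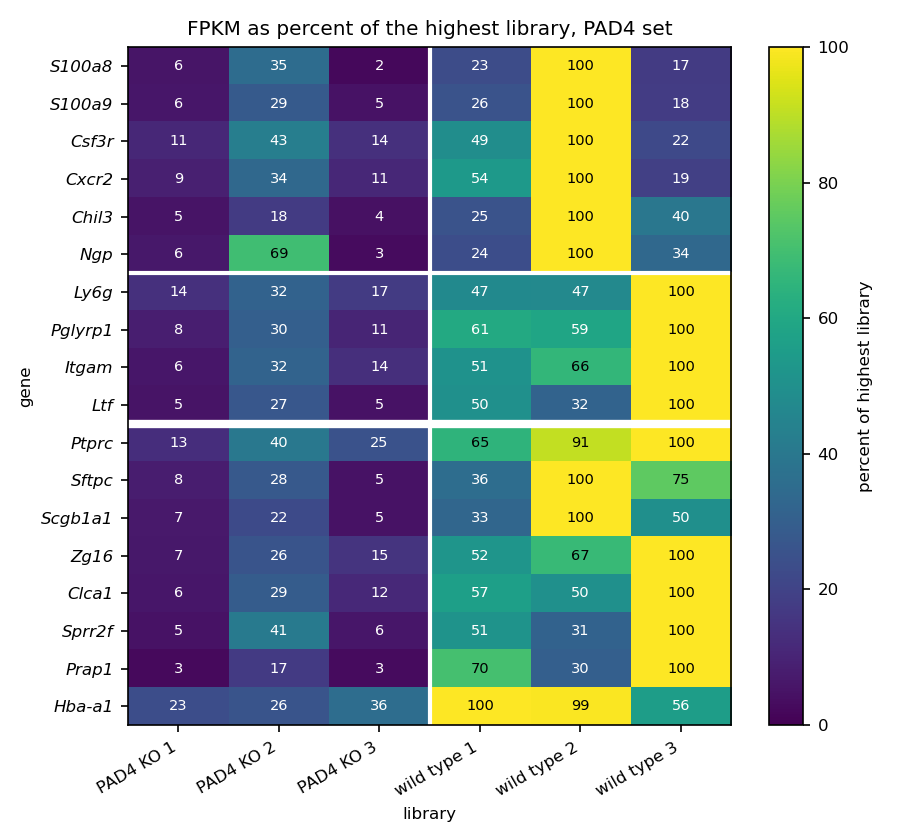
FPKM of the 10 neutrophil genes and of 8 other genes in each library of the PAD4 set, as a percent of the gene's highest library, with PAD4 knockout libraries left and wild-type libraries right. The upper block holds the 6 neutrophil genes highest in wild-type library 2, the middle block the 4 highest in wild-type library 3. The lower block holds Ptprc of all leukocytes, the lung genes Sftpc and Scgb1a1, the colon genes Zg16 and Clca1, Sprr2f and Prap1 of the uterus list, and the globin gene Hba-a1. Sftpc, Scgb1a1, Zg16 and Clca1 were chosen with their values known.

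Other neutrophil genes of the PAD4 set were taken from lists. Among 10 tested receptors and adhesion molecules of neutrophils 5 fell and none rose (median change -0.63). Selplg, the P-selectin ligand, was at 0.0597, 0.387 and 0.189 FPKM in PAD4 knockout, against 0.740, 1.24 and 1.47 FPKM in wild type (-0.82 ± 0.18 (SE), limma adjusted p = 0.00457). Il1r2, a decoy receptor for interleukin-1, was at 0.0639, 0.756 and 0.274 FPKM in the knockout, against 1.48, 4.79 and 1.16 FPKM in wild type (-1.24 ± 0.29 (SE), limma adjusted p = 0.00607). The Fc receptor gene Fcgr3, shared with macrophages, fell by 0.92 on the log2 scale. All 3 had no overlap between the groups. Selplg and Il1r2 passed the filter on level through wild type only.

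Of 12 tested transcripts of mature neutrophils 8 fell and none rose, with a median change of -0.96. Retnlg, a resistin-like protein made by neutrophils, was at 1.04, 7.37 and 1.17 FPKM in PAD4 knockout, against 8.35, 13.3 and 13.05 FPKM in wild type (-1.89 ± 0.40 (SE), limma adjusted p = 0.00316). Mxd1, a MYC antagonist of maturing granulocytes, was at 1.87, 4.56 and 2.62 FPKM in the knockout, against 6.53, 9.19 and 11.96 FPKM in wild type (-1.37 ± 0.29 (SE), limma adjusted p = 0.00318). Alox5ap, needed for leukotriene synthesis, fell by 1.40 on the log2 scale. These genes stood below wild type in every knockout library, as Ly6g and Pglyrp1 did. G0s2 of the same list had a positive change that did not pass (0.97, limma adjusted p = 0.0661).

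Other granule proteins did not move as a group. Of 6 tested 1 fell and 1 rose (median change -0.41). Cd177, a surface protein of neutrophil granule membranes, fell to 0.252, 0.832 and 0.417 FPKM in PAD4 knockout, against 1.35, 2.20 and 2.80 FPKM in wild type (-1.05 ± 0.22 (SE), limma adjusted p = 0.00270). Olfm4, a specific granule protein that intestinal and kidney epithelium can also express, rose to 2.31, 1.72 and 1.74 FPKM in the knockout, against 0.348, 0.680 and 0.884 FPKM in wild type (0.84 ± 0.20 (SE), limma adjusted p = 0.00611). Lcn2, a specific granule protein that injured tubules secrete, was at 90.2, 95.6 and 39.7 FPKM in the knockout, against 102, 135 and 166 FPKM in wild type, and did not pass (-0.90 ± 0.37 (SE), limma adjusted p = 0.102). Azurophil genes were near 0: Mpo (myeloperoxidase) and Elane (neutrophil elastase) reached 0.0424 and 0.0404 FPKM at most, and Prtn3 (proteinase 3) was at 0, 0 and 0.0696 FPKM in the knockout, against 0.201, 0.409 and 0.196 FPKM in wild type.

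Of 5 tested genes of the NADPH oxidase, which makes superoxide in phagocytes, 2 fell and none rose, Ncf1 by 0.62 and Cybb by 0.61 on the log2 scale, while Cyba, which many tissues express, did not pass (0.88, limma adjusted p = 0.0858). Of 4 tested granulocyte transcription factors 2 fell and none rose. Cebpd went down most, to 1.97, 6.02 and 2.34 FPKM in PAD4 knockout, against 11.7, 17.2 and 12.9 FPKM in wild type (-1.84 ± 0.31 (SE), limma adjusted p = 0.000702), and Cebpb, like Cebpd an acute phase factor of many cell types, fell by 1.11 on the log2 scale. Spi1, which encodes PU.1, was lower in every knockout library but did not pass (-0.54 ± 0.22 (SE), limma adjusted p = 0.0940). Of 7 tested neutrophil chemoattractants, growth factors and adhesion ligands 3 fell and none rose: Ppbp (-1.11), made by platelets, Cxcl15 (-1.59), a chemokine of lung epithelium, and Csf3 (-0.93), which encodes G-CSF. Cxcl1, a CXCR2 ligand that injured tubules can produce, was at 1.72, 26.0 and 2.48 FPKM in the knockout, against 12.0, 11.6 and 15.3 FPKM in wild type, with knockout library 2 above all others.

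Some genes of other leukocytes fell as well. Of 7 tested pan-leukocyte genes 3 fell (Laptm5, Fcer1g and Cd53) and none rose, with a median change of -0.67, and of 11 tested monocyte and macrophage genes 5 fell and none rose, Ly6c2 by 0.92, Cd14 by 1.30 and Adgre1 by 0.60 on the log2 scale. Csf1r of that list had a positive change that did not pass (0.88, limma adjusted p = 0.0570). The lymphoid genes Jchain and Gzma fell by 1.60 and 0.79, and the platelet genes Pf4 and Gp9 by 1.51 and 0.79, while Itga2b did not pass (-0.23). The 1 tested gene of alveolar macrophages, Ear2, also fell, by 1.00. Against them, 4 of 8 tubule genes rose and none fell, led by the phosphate transporter gene Slc34a1, at 50.5, 18.1 and 58.96 FPKM in the knockout and 4.73, 3.61 and 7.56 FPKM in wild type, and by the endocytic receptor genes Lrp2 (1.91) and Cubn (1.40). None of 4 keratinised epithelium genes passed, Krt10 (0.47), Krt14 (-0.66) and Krt13 (-0.78) having the smallest p, and nor did the 1 gland gene tested, Bpifa1.

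In kidneys labelled IL-33 knockout no neutrophil gene changed by the test, and all 10 overlapped their wild type. In these libraries 14.4% of all genes listed were lower with no overlap and 19.7% higher, and of the genes past the filter 24.3% were lower and 30.2% higher. Levels were low: S100a9 was the highest of the 10 in all 6 libraries, at 4.61 FPKM at most, and Ly6g was listed at 0 in 5 of the 6 libraries. Only S100a8, S100a9, Csf3r and Chil3 reached a mean of 0.5 FPKM and could be tested, and 0 of these 4 passed with limma (0 at an unadjusted p under 0.05). In the same comparison 16.8% of 14513 genes tested fell and 22.2% rose. The median change of the 4 genes was 0.21, against 0.044 over all genes tested.

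**Figure D3:**
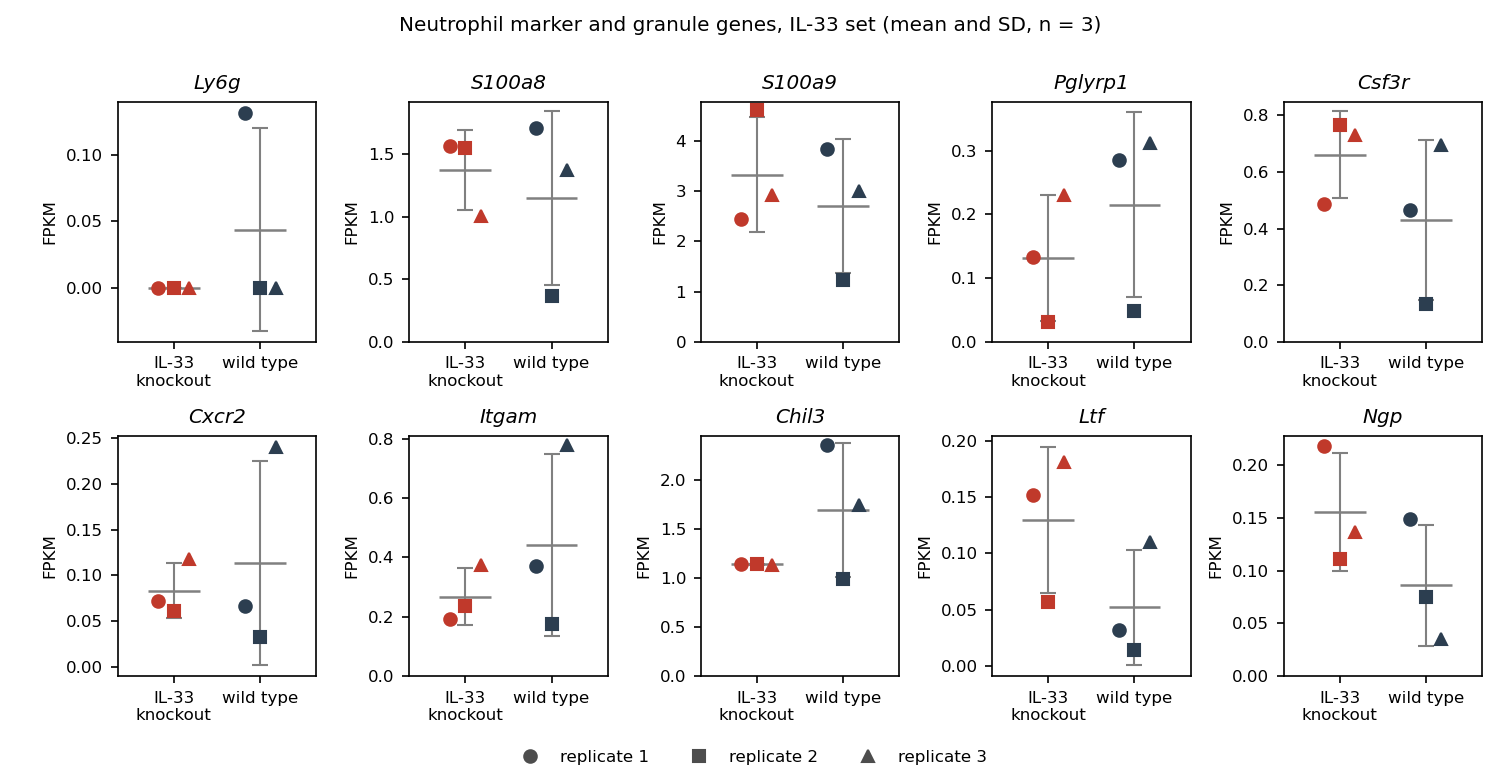
FPKM of each of the 10 neutrophil genes in the IL-33 set, with libraries labelled IL-33 knockout on the left and wild-type libraries on the right of each panel. Symbols stand for the replicate number, horizontal lines for the group mean and bars for the SD (n = 3). The groups overlap in all 10 panels, and the vertical scales are far lower than in the PAD4 set for Ly6g, Pglyrp1 and Ltf.

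Of the calprotectin pair, S100a8 was at 1.57, 1.55 and 1.00 FPKM in libraries labelled IL-33 knockout, against 1.71, 0.369 and 1.37 FPKM in wild type. S100a9 was at 2.45, 4.61 and 2.92 FPKM, against 3.84, 1.23 and 3.00 FPKM. Wild-type library 2 was the lowest of the 6 for both. The changes were 0.19 ± 0.25 (SE) for S100a8 and 0.27 ± 0.30 (SE) for S100a9, with limma adjusted p of 0.579 and 0.513. Without wild-type library 2 they turned to -0.10 and -0.057.

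Chil3 had nearly equal levels in the libraries labelled IL-33 knockout, at 1.14, 1.14 and 1.13 FPKM, against 2.35, 0.984 and 1.74 FPKM in wild type (-0.30 ± 0.19 (SE), limma adjusted p = 0.241). Without wild-type library 2 it passed as a fall (-0.50, adjusted p = 0.0261). Its near-identical neighbour Chil4 was at 0.33 FPKM at most in this set and 0.01 FPKM at most in the PAD4 set, and reads could be shared between them. Csf3r was at 0.486, 0.767 and 0.731 FPKM in the labelled knockout, against 0.466, 0.132 and 0.694 FPKM in wild type (0.23 ± 0.17 (SE), limma adjusted p = 0.308).

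The remaining 6 genes lay under the filter. Ly6g was listed at 0 in all 3 libraries labelled IL-33 knockout, against 0.132, 0 and 0 FPKM in wild type. Itgam was at 0.192, 0.235 and 0.376 FPKM in the labelled knockout, against 0.370, 0.175 and 0.778 FPKM in wild type. Pglyrp1 was at 0.132, 0.0312 and 0.230 FPKM, against 0.285, 0.0477 and 0.312 FPKM, and Cxcr2 at 0.0715, 0.0606 and 0.118 FPKM, against 0.0663, 0.0331 and 0.241 FPKM. The highest library of all 3 genes was wild-type library 3. Ltf, so abundant in the wild type of the PAD4 set, was at 0.152, 0.0569 and 0.181 FPKM in the labelled knockout, against 0.0318, 0.0137 and 0.110 FPKM in wild type. Ngp was at 0.219, 0.111 and 0.137 FPKM, against 0.149, 0.0748 and 0.0351 FPKM. Exact two-sided permutation tests of these 6 gave p between 0.2 and 1.

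Both wild types went through the same protocol by the labels, yet Ly6g spanned 4.64 to 9.88 FPKM in the wild type of the PAD4 set and 0 to 0.132 FPKM in that of the IL-33 set. The summed colon genes differed with it, at 372 to 567 FPKM in the wild type of the PAD4 set and 20.4 to 41.3 FPKM in that of the IL-33 set. All 12 colon genes were listed in the PAD4 set but only 8 of them in the IL-33 set, so the sums cover unlike sets of genes. Batch, separate normalization and biology cannot be told apart here, and no level was tested between the sets.

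Of the listed signals that act on neutrophils, 1 changed in the IL-33 set, the chemokine gene Cxcl1. It fell to 0.305, 0.305 and 0.261 FPKM in libraries labelled IL-33 knockout, against 24.3, 9.75 and 7.97 FPKM in wild type (-3.38 ± 0.35 (SE), limma adjusted p = 0.000356). It was the 1 gene that fell among 4 tested chemoattractants, growth factors and adhesion ligands, of which none rose. Icam1, an endothelial ligand of CD11b/CD18, did not pass (-0.67 ± 0.25 (SE), limma adjusted p = 0.0685), and nor did Ppbp (0.34, limma adjusted p = 0.0721). Lcn2 fell to 16.5, 24.2 and 16.6 FPKM, against 230, 291 and 608 FPKM in wild type (-4.12 ± 0.34 (SE), limma adjusted p = 0.000144), and Olfm4 rose to 7.35, 5.88 and 6.98 FPKM, against 1.47, 1.41 and 1.98 FPKM in wild type (1.56 ± 0.13 (SE), limma adjusted p = 0.000176), the 2 changes among 3 other granule genes tested, of which Itgb2l did not pass (-0.05). Among receptors 1 of 6 fell, Il1r2, at 0.0294, 0 and 0.0643 FPKM in the labelled knockout and 1.52, 0.344 and 1.70 FPKM in wild type, and Selplg (0.34) and Itgb2 (0.32) did not pass.

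Of 7 tested transcripts of mature neutrophils 2 rose and 2 fell in the libraries labelled IL-33 knockout. The 3 with the smallest p were G0s2 (-1.83), an inhibitor of lipolysis in many tissues, Mxd1 (0.36) and Msrb1 (-0.44), a selenoprotein that kidney expresses at 37.2 to 59.4 FPKM in this set. Of 3 tested oxidase genes 2 rose, Cybb (1.06) and Rac2 (0.62), and Cyba did not pass (0.25, limma adjusted p = 0.0516). Of 4 granulocyte transcription factors Spi1 rose by 0.84, while Cebpd and Cebpb fell by 2.61 and 2.26 on the log2 scale. Of 7 pan-leukocyte genes 4 rose and none fell, among them Lcp1 (1.14), Tyrobp (1.05) and Cd52 (1.14).

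Macrophage genes moved in both directions in this comparison, with 7 of 11 higher and 2 lower. C1qa, a complement component made by resident macrophages, rose to 17.7, 17.7 and 18.7 FPKM in libraries labelled IL-33 knockout, against 4.46, 2.64 and 4.67 FPKM in wild type. C1qb rose by 1.51 on the log2 scale. Cd14, the lipopolysaccharide co-receptor, fell to 4.72, 3.49 and 5.16 FPKM, against 134, 88.4 and 97.7 FPKM. All 5 erythroid genes rose, with the smallest p for Alas2 (1.15), Hbb-bt (1.19) and Hbb-bs (1.11). Of 8 tubule genes 5 rose, with the smallest p for Lrp2 (2.91), Cubn (2.35) and Slc34a1 (2.66), and 1 fell. Of the lists with few tested genes, 1 of 2 lung genes rose (Napsa) and 1 fell (Ager), 1 of 3 colon genes (Lgals4), 1 of 2 uterine genes (Sprr2f) and the 1 gland gene (Lpo) fell, Jchain rose, 1 of 3 keratinised epithelium genes (Krt10) rose, and neither platelet gene passed (Pf4 at 0.29 and Itga2b at 0.21). Guca2a (0.39) and Fcgbp (-0.63) of colon, Ovgp1 (-0.29) of the oviduct and the keratin genes Krt14 (-0.47) and Krt5 (-0.58) did not pass.

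The changes of both comparisons were set against each other directly for the genes past the filter in both sets, as the change in the labelled IL-33 knockout minus that in the PAD4 knockout. Of 13010 genes 6.18% had a positive and 6.23% a negative difference by the same rule, and of the 4 neutrophil genes that could be tested 0 passed with limma (3 at an unadjusted p under 0.05). Chil3 came closest (1.77 ± 0.56 (SE), adjusted p = 0.0510), with S100a9 at 2.05 ± 0.85 (SE), adjusted p = 0.133, S100a8 at 1.90 ± 0.91 (SE), adjusted p = 0.192, and Csf3r at 0.88 ± 0.39 (SE), adjusted p = 0.160. All 4 passed with PAD4 knockout library 2 left out. A neutrophil gene that fell in one comparison and did not pass in the other was thus not shown to differ between them.

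**Figure D4:**
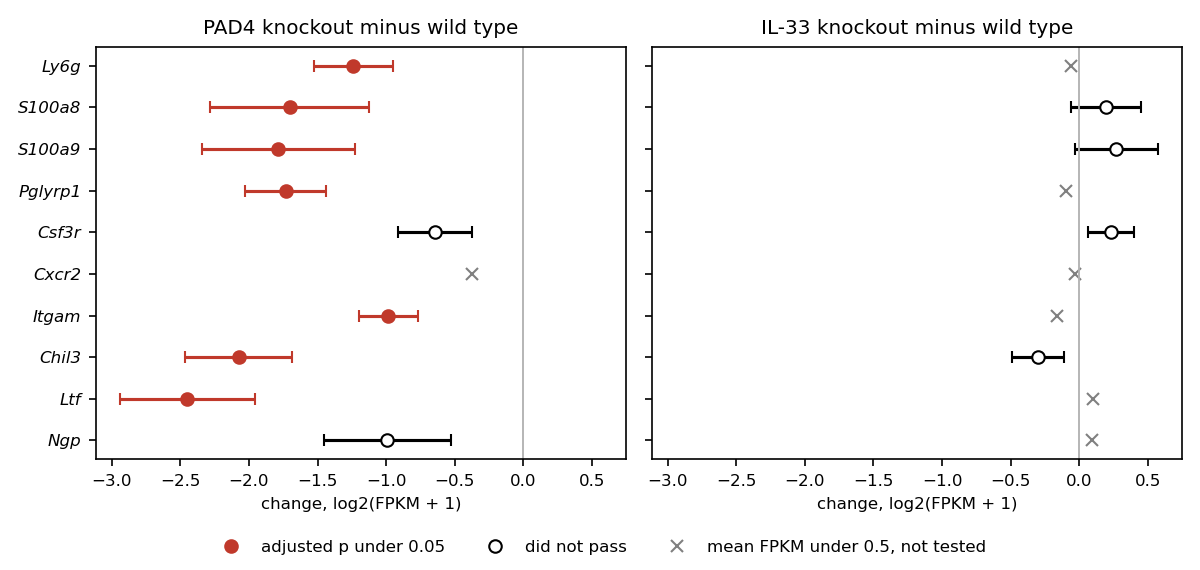
Change of each neutrophil gene on the log2(FPKM + 1) scale, PAD4 knockout minus wild type on the left and labelled IL-33 knockout minus wild type on the right, with the limma SE as bars. Filled points passed an adjusted p of 0.05, open points did not, and crosses are genes under the 0.5 FPKM filter. On the left 7 points are filled, all below 0, and on the right none is.

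Neutrophil transcripts were also set against Ptprc (CD45), which all leukocytes carry, as the summed FPKM of the 10 genes over Ptprc FPKM in the same library. Ptprc itself was at 0.0856, 0.258 and 0.162 FPKM in PAD4 knockout kidneys, against 0.419, 0.585 and 0.646 FPKM in wild type. Ptprc lay under the 0.5 FPKM filter in both sets, and no counting error can be attached to it. S100a8 and S100a9 together held 15.8% to 64.4% of the sum in the PAD4 set, and Ltf much of the rest. The ratio was 207, 336 and 96.9 in the knockout, against 251, 373 and 242 in wild type, and the groups overlapped (difference of mean log2 ratios -0.58, exact two-sided permutation p = 0.4). It depended on what was divided by what. With the pan-leukocyte list as the denominator the difference was -1.35, and with Csf1r, a macrophage receptor that was at 9.77, 3.57 and 9.07 FPKM in the knockout and 2.24, 3.79 and 4.13 FPKM in wild type, it was -3.46 (exact permutation p = 0.1 each, the smallest possible). Without Ltf and Chil3, which other tissues and macrophages express, it was -0.19 (exact permutation p = 0.8).

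In the IL-33 set Ptprc was at 0.457, 0.475 and 0.487 FPKM in libraries labelled IL-33 knockout, against 0.230, 0.131 and 0.194 FPKM in wild type. The ratio of the 10 genes to Ptprc was 14.0, 18.0 and 14.0 in the labelled knockout, against 40.8, 23.4 and 42.7 in wild type, with no overlap (difference -1.18, exact two-sided permutation p = 0.1, the smallest possible). Csf1r, the pan-leukocyte list and the sum without Ltf and Chil3 gave -2.03, -0.99 and -1.01. S100a8 and S100a9 together held 52.3% to 72.0% of the sum in this set. The summed neutrophil genes themselves were at 6.40, 8.55 and 6.82 FPKM, against 9.40, 3.06 and 8.28 FPKM, and overlapped, so the lower ratio went with higher Ptprc.

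**Figure D5:**
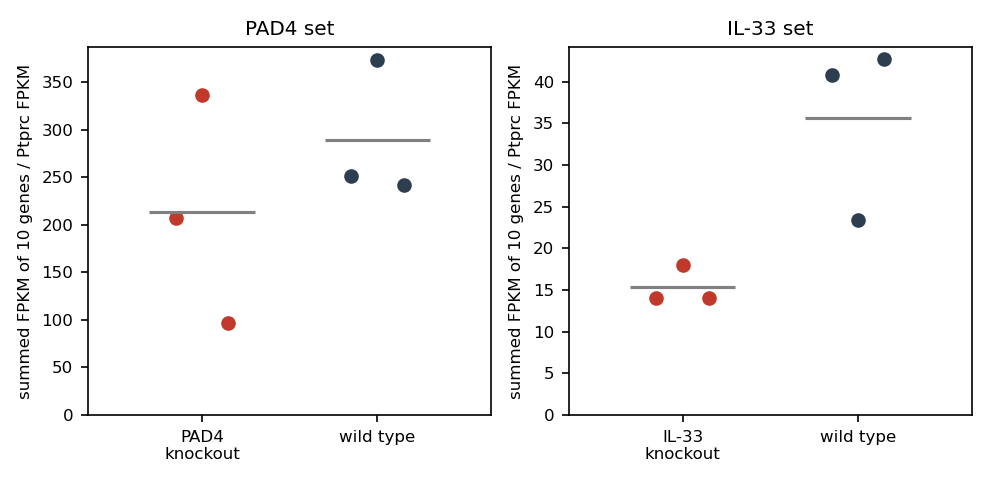
Summed FPKM of the 10 neutrophil genes over Ptprc FPKM in each library, with the knockout left of its wild type in each panel and the group mean as a line (n = 3). In the PAD4 set the knockout values of 96.9 to 336 overlap the wild-type values of 242 to 373, and in the IL-33 set values of 14.0 to 18.0 lie below those of 23.4 to 42.7. The vertical scales differ between the panels, and Ptprc lay under the 0.5 FPKM filter in both sets.

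Genes whose pattern over all 12 libraries was nearest to that of Ly6g were Pamr1, Tent5a, Ggh, Myh14 and Dsg2, with a root mean square difference of 0.15 to 0.17 in log2(FPKM + 1) centred within each set, where the pattern of Ly6g itself had a root mean square of 0.52. Nearest to the mean of the 10 genes were Fgl2, Itga5, Kcnj8, Gm10698 and Tlr2, at 0.25 to 0.27, where that mean had 0.62. They were taken from 10589 other genes with a mean of at least 1 FPKM in both sets. The measure describes likeness of level over these libraries only, and the PAD4 set, in which the neutrophil genes varied most, weighs most in it.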

How the data were processed

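RNA was measured in 12 mouse kidneys, 3 in each of 4 groups. Per the labels' protocols, poly(A) RNA extracted with TRIzol was made into strand-specific libraries and read on an Illumina sequencer. FPKM values were deposited by the authors in a separate table per set, whose columns are single libraries. The tools in the submitters' processing notes are HISAT2, StringTie, cutadapt, FastQC, edgeR and DESeq2, without roles or versions. The genome build and annotation were not given in the sources used here. Wild-type columns of the IL-33 set carry no genotype in their names, and were assigned as the set's only group left. 0 columns belonged to no sample. Genes are listed by Ensembl ID, and GENCODE gave symbols to 30212 of 32199 in the PAD4 set and 29690 of 31719 in the IL-33 set. Whole reads were not recovered from low FPKM values: the fullest bin of their ratios to library 1 of the set held 2.71% to 4.47% of low genes, against 1.49% to 4.68% of genes of middle level, and was the fuller of the 2 in 9 of 10 libraries. Depth was therefore taken as unknown.

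limma 3.58.1 (R 4.3.3; lmFit and trended eBayes) was run on log2(FPKM + 1) within each set, over genes with a mean of at least 0.5 FPKM in its 6 libraries, with Benjamini-Hochberg adjustment over all of them. On this scale the change of a low gene is understated. A gene can pass this filter through its higher group alone. Itgam, Selplg and Il1r2 did so in the PAD4 set, and Cxcl1 and Il1r2 in the IL-33 set. The difference of the changes was a contrast of 4 group means over 12 libraries. All tests are two-sided, and the code was tested on simulated data. Single values were compared with exact permutation tests coded in Python 3.11.15 with numpy 2.4.6. Replicate numbers are shared between the groups of a set, but deviations of same-numbered libraries correlated at -0.016, -0.11 and -0.15 in the PAD4 set and -0.014, 0.13 and -0.0017 in the IL-33 set, so they were not treated as pairs. Beside the 10 genes, Padi4 and Il33, the text names in each set the 3 tested genes with the smallest p of each list, and the 5 genes nearest to Ly6g and to the mean of the 10. Other genes (Sftpc, Scgb1a1, Zg16, Clca1, Napsa, Ptprc, Csf1r, Cxcl1 and G0s2 in the PAD4 set, Mpo, Elane, Prtn3, Xist) were chosen with their values known. The 10 genes, the lists and the tests were chosen with earlier results of these data known. Promoters were matched by symbol in RefSeq for all 10 genes, and no position was taken from the deposited tables.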

Additional observations from a re-analysis of the deposited data

Results flagged for a closer look

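Of 57 named genes tested for it, 29 changed differently in the labelled IL-33 knockout and in the PAD4 knockout (limma contrast of 4 group means, adjusted p under 0.05). Over all 13010 genes tested, 6.18% had a positive and 6.23% a negative difference. Beside the neutrophil genes and Il33, the 57 were those with the smallest p of their list in a comparison that enters this contrast. Their share therefore cannot be set against that of all genes. Values are the IL-33 change minus the PAD4 change on the log2(FPKM + 1) scale. Of the 10 neutrophil genes, 4 were tested for this difference (Csf3r, Chil3, S100a8 and S100a9), and 0 passed. The others, Ly6g, Pglyrp1, Ltf and Itgam among them, lay under the 0.5 FPKM filter in the IL-33 set. Their absence from the 29 is therefore no result. No cause was tested.

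The difference was negative for 5 genes. Lcn2 stood at -3.22 (change of -4.12 in the labelled IL-33 knockout and -0.90 in the PAD4 knockout), Cd14 at -2.99, G0s2 at -2.81, the colon lectin gene Lgals4 at -1.41 and Cebpb at -1.15. For G0s2 the changes had opposite signs, -1.83 in the labelled IL-33 knockout and 0.97 in the PAD4 knockout, where it did not pass.

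It was positive for 24 genes. Among neutrophil-related genes these were Selplg (1.16), Rac2 (1.17), Spi1 (1.38), Ppbp (1.45), Cybb (1.66), Mxd1 (1.73) and Alox5ap (1.75). Among pan-leukocyte genes they were Lcp1 (1.47), Cd52 (1.66), Tyrobp (1.72), Laptm5 (1.78) and Fcer1g (2.08). Monocyte and macrophage genes were Ly6c2 (0.94), Adgre1 (1.71), C1qb (2.02) and C1qa (2.63). Genes of red cells were Alas2 (2.13), Hba-a2 (2.15), Hba-a1 (2.16), Hbb-bs (2.40) and Hbb-bt (2.56), whose paralogs share near-identical sequence. Pf4 of platelets (1.81), Guca2a of colon (2.17) and Jchain of plasma cells (2.19) made up the rest.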

How the results depend on the processing

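Against 7 neutrophil genes lower in the PAD4 knockout, other settings gave 5 to 9 except no filter (0). S100a8 and S100a9 did not pass with median-of-ratios scaling, quantile normalization or no trend, nor did S100a8 with a pseudocount of 0.1 (adjusted p = 0.0544). Pglyrp1, Chil3 and Itgam lost their call with no filter only. Over all genes, 1230 were lower and 1243 higher, against 0 and 0 with no filter, 762 lower with a mean of at least 2 FPKM, 1916 higher with quantile normalization, and 2939 lower and 2267 higher with array weights, which did not fully converge. Of the 4 tested differences between the changes, 1 passed with TPM (Chil3) and 4 with array weights. With no filter 10 differences were tested and 1 passed (Pglyrp1, tested there only and not among the 4). The cause of these shifts was not tested.

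Leaving out each library in turn gave 4 to 9 neutrophil genes lower in the PAD4 knockout, 0 to 1 lower in the labelled IL-33 knockout (1 without wild-type library 2) and 0 to 4 passing differences. Over all genes it gave 515 to 1764 lower (515 without wild-type library 3) and 352 to 1770 higher (352 without wild-type library 1) in the PAD4 set, and 1554 to 2662 lower and 2072 to 3903 higher in the IL-33 set (fewest without labelled knockout library 1). Without wild-type library 2 of the IL-33 set the changes of S100a8 and S100a9 there reversed to -0.10 and -0.057 (ranges over all libraries left out -0.10 to 0.39 and -0.057 to 0.50). The ratio to Ptprc ranged from -0.999 to -0.10 in the PAD4 set and from -1.45 to -1.02 in the IL-33 set.

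With the replicate number as a block 8 neutrophil genes were lower in the PAD4 knockout (Ngp too, adjusted p = 0.0140), 0 passed in the IL-33 set and 4 differences passed. Errors of the PAD4 comparison came from the trend over all genes alone with the block and with TPM. The same held without knockout library 1, knockout library 2 or wild-type library 2 of that set. The block gave 1033 lower and 951 higher genes in the PAD4 set and 2271 and 3065 in the IL-33 set. Not every library correlated best with its own number. Depth is unknown, so no limit from counting can be given for genes near 0.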

Other observations

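Further granule genes of the PAD4 set had low levels. Mmp9, the gelatinase of tertiary granules, was at 0.0705, 0.270 and 0.118 FPKM in PAD4 knockout kidneys, against 0.516, 0.987 and 0.928 FPKM in wild type, with no overlap, and lay under the 0.5 FPKM filter. Mmp8, the neutrophil collagenase, was at 0.128, 0.973 and 0.154 FPKM in the knockout, against 0.482, 2.35 and 0.464 FPKM in wild type, and did not pass (-0.50 ± 0.27 (SE), limma adjusted p = 0.224). Camp, the cathelicidin of specific granules, was at 0.206, 1.45 and 0 FPKM in the knockout, against 0.280, 1.48 and 0.553 FPKM in wild type, and did not pass either (-0.25 ± 0.27 (SE), limma adjusted p = 0.597). For all 3 genes knockout library 2 was the highest of its group. These genes were picked after their values were seen.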
